A study of Mus musculus with 14 samples.

Results

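The genes described here are 10 members of the Notch pathway: the receptors Notch1, Notch2 and Notch3, the ligands Dll1, Dll4, Jag1 and Jag2, the target genes Hes1 and Hey1, and Atoh1, a transcription factor gene that Notch targets repress in the intestine. They were chosen by name, and all 10 were found on the array, where 12 of 55681 probes and 10 of 33517 gene names belonged to them. Expression was measured on 14 one-color mouse arrays in 5 groups, with 3 arrays each of small intestine, adenoma, colon and CT26 and 2 arrays of the tissue adjacent to the adenomas. Small intestine and colon are labelled as normal tissue of C57BL/6J mice, and adenoma and adjacent tissue come from APCmin/+ mice, which carry a truncating allele of the Wnt regulator Apc and develop intestinal adenomas. CT26 is a colon carcinoma cell line grown in culture and derived from another strain, BALB/c, so that its comparison with colon sets cultured cells against whole tissue. Per the study's sample list, the small intestine arrays came from 3 mice, while all adenoma and adjacent pieces came from 1 mouse. If so, the spread within those groups is that between pieces of 1 animal. The paper's methods name more than 1 APCmin/+ mouse for the whole study, without saying which of them gave these arrays. The sample list also places 1 colon sample under an APCmin/+ mouse, in contrast with its label. The labels give no treatment for any group.

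Notch receptors are bound by Delta and Jagged ligands on neighboring cells and are then cleaved, first by an Adam protease and then by gamma-secretase. The released intracellular part enters the nucleus, joins the DNA-binding protein Rbpj and its coactivators, and switches on repressor genes of the Hes and Hey families. In intestinal crypts this signal keeps progenitors dividing and directs them to the absorptive lineage, whereas cells that escape it express Atoh1 and Delta ligands and become goblet, Paneth or enteroendocrine cells. Dll4, Notch3 and Hey1 are also well known in blood vessels and the mural cells around them, which whole tissue contains.

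Values below are log2 signal minus the 75th percentile of the same array, so 0 is the level of that percentile and 1 unit is a doubling. They can be set between arrays for one probe but not between probes. Between 46.85% and 58.21% of the probes of an array were well above background. Colon replicate 3 stood apart from the other colon arrays: its small intestine enterocyte markers had a median of 5.79, against -2.71 and -2.53 on the other two, its Paneth markers 7.30, against -2.02 and -0.55, and its colonocyte markers -0.44, against 4.34 and 4.73. Comparisons with colon are therefore also given without that array. In CT26, 5 of 9 epithelial markers (Epcam, Cdh1, Vil1, Krt19 and Elf3) were well above background on no array, and their list had a median of -6.49 to -6.14, against 6.88 to 8.38 in the tissues. In whole tissue, fewer cells of a type and less RNA per cell cannot be told apart.

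Among the receptors, Notch1 had array values of 0.17, 0.19 and 1.37 in small intestine, 0.11 and 1.69 in adjacent tissue, -0.63, -0.62 and -0.74 in adenoma, 0.78, 0.74 and 0.34 in colon and -2.22, -3.41 and -2.68 in CT26. Notch1, the main receptor of crypt progenitors together with Notch2, was thus lowest in CT26 and next lowest in adenoma, and small intestine, adjacent tissue and colon overlapped. Its probe lies at chr2:26319440-26319499 on the minus strand (NCBI37/mm9). A second Notch1 probe was well above background on 1 of the 14 arrays only and was not used. Notch2 ran the other way: its values were -0.22, -0.71 and -1.40 in small intestine, 0.33 and 0.32 in adjacent tissue, 0.35, 0.15 and 0.40 in adenoma, 0.02, 0.07 and 0.17 in colon, and 2.93, 2.97 and 3.12 in CT26. All 3 CT26 arrays lay far above every tissue array. Notch3, a receptor best known from vascular mural cells, read -3.88, -2.93 and -4.42 in small intestine, -1.49 and -0.36 in adjacent tissue, -1.17, -1.17 and -0.62 in adenoma, -3.36, -1.94 and -2.62 in colon and -5.84, -7.43 and -7.17 in CT26. Adenoma and adjacent tissue overlapped and were both above small intestine and colon, and in CT26 Notch3 was not well above background on any array.

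**Figure D1:**
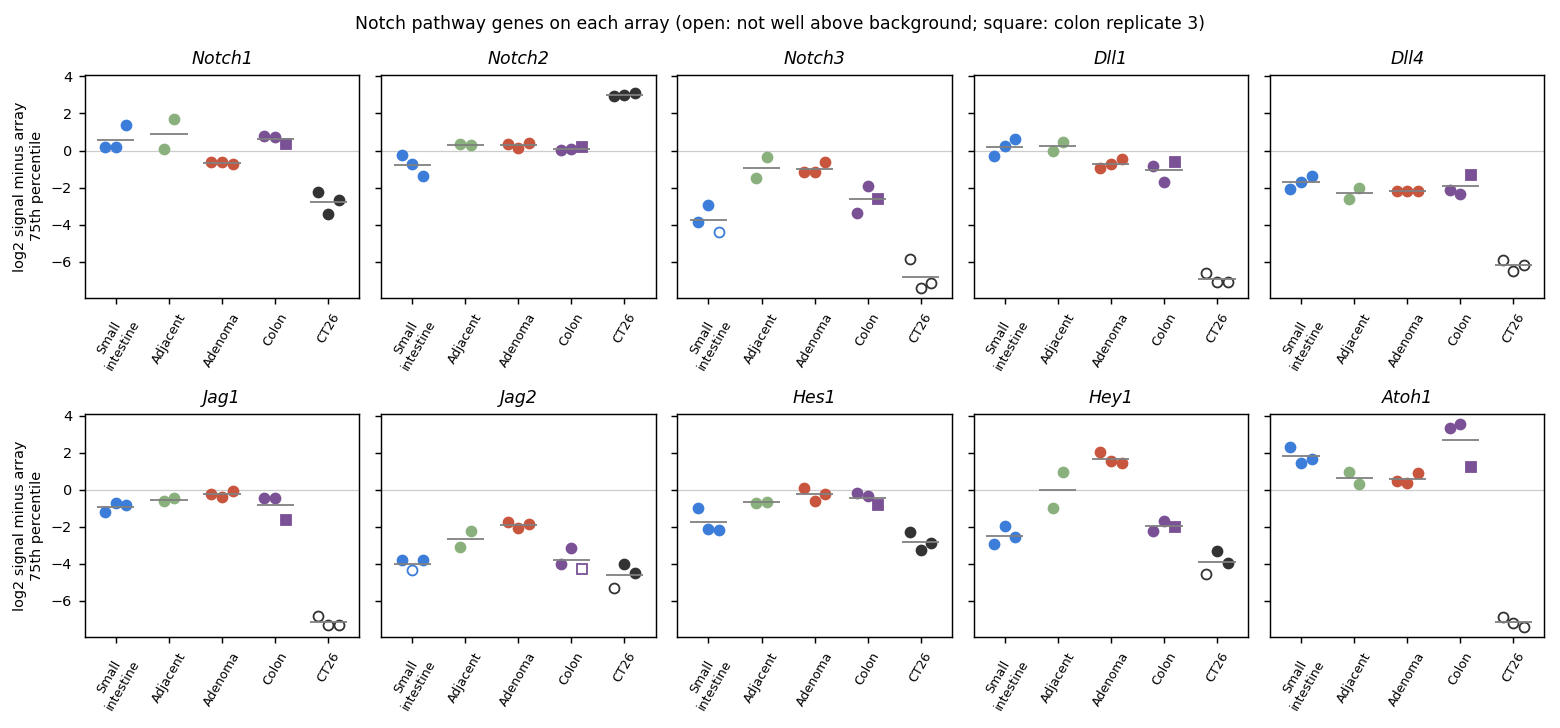
Each panel plots 1 gene, with the 5 groups on the x axis and log2 signal minus the array's 75th percentile on the y axis; each point is 1 array and the grey line is the group mean. Open points were not well above background, and the square is colon replicate 3. Hey1 separates the adenoma arrays (1.46 to 2.05) from small intestine (-2.93 to -1.97), and Notch2 is the gene whose CT26 arrays (2.93 to 3.12) sit above every tissue array.

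Of the ligands, Dll1, which marks secretory progenitors, had values of -0.28, 0.24 and 0.62 in small intestine, -0.01 and 0.47 in adjacent tissue, -0.93, -0.71 and -0.48 in adenoma and -0.83, -1.68 and -0.62 in colon. Adenoma and colon overlapped, and both lay below small intestine and adjacent tissue. Dll4, the partner of Dll1 in crypts and a ligand of endothelial cells, stayed within a narrow range in tissue, at -2.07, -1.68 and -1.40 in small intestine, -2.60 and -2.04 in adjacent tissue, -2.20, -2.20 and -2.17 in adenoma and -2.11, -2.35 and -1.31 in colon. Jag1, a Jagged ligand with wide expression, read -1.19, -0.72 and -0.84 in small intestine, -0.63 and -0.45 in adjacent tissue, -0.22, -0.39 and -0.04 in adenoma and -0.45, -0.43 and -1.66 in colon, with replicate 3 the low colon array. On CT26 arrays Dll1 lay between -7.12 and -6.60, Dll4 between -6.52 and -5.94 and Jag1 between -7.32 and -6.80, and none of the 3 ligands was well above background there. Jag2, the second Jagged ligand, read -3.80, -4.36 and -3.81 in small intestine, -3.09 and -2.21 in adjacent tissue, -1.71, -2.06 and -1.85 in adenoma, -4.00, -3.14 and -4.28 in colon and -5.29, -4.01 and -4.47 in CT26. Adenoma was its highest group, with adjacent tissue next, and small intestine, colon and CT26 overlapped near the detection limit, each with 2 of 3 arrays well above background.

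Hes1, the Notch target that represses Atoh1, had values of -0.997, -2.09 and -2.15 in small intestine, -0.70 and -0.67 in adjacent tissue, 0.07, -0.59 and -0.23 in adenoma, -0.16, -0.33 and -0.85 in colon and -2.26, -3.27 and -2.89 in CT26. Small intestine lay below the other 3 tissues, which were close together, and CT26 was lowest. Hey1, a related repressor, read -2.93, -1.97 and -2.54 in small intestine, -0.96 and 0.96 in adjacent tissue, 2.05, 1.54 and 1.46 in adenoma, -2.23, -1.69 and -2.02 in colon and -4.53, -3.30 and -3.94 in CT26. The order of its means was adenoma, adjacent tissue, colon, small intestine and CT26, with colon and small intestine overlapping and the 2 adjacent pieces 1.92 apart on the log2 scale. Atoh1, the factor that commits cells to the secretory lineage, read 2.33, 1.42 and 1.68 in small intestine, 0.95 and 0.29 in adjacent tissue, 0.45, 0.36 and 0.93 in adenoma, 3.32, 3.55 and 1.26 in colon and -6.86, -7.21 and -7.40 in CT26. Adjacent tissue and adenoma overlapped and lay below small intestine, colon replicate 3 lay just below small intestine, and the other colon arrays were the highest of all.

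The first comparison asked how the adenomas differed from normal small intestine. Hey1, Notch3 and Jag2 were higher in adenoma, and none of the 10 genes passed the test in the other direction. A gene was called where its fold change reached 1.2 on the log2 scale and its adjusted p was at most 0.01 (limma, Benjamini-Hochberg over all probes tested), the thresholds that the study used. By this rule 3 of 10 members were called, all higher, beside 22.9% of the 20946 genes tested, or 11.6% in the higher direction. Notch3 and Jag2 could be tested through adenoma alone, so the count gives no support for a direction. Hey1 rose 17.9-fold, from a mean of -2.48 ± 0.48 to 1.68 ± 0.32 (SD, n = 3 each), a log2 difference of 4.16 ± 0.29 (SE) with an adjusted p of 0.000126. Notch3 rose 6.76-fold (log2 2.76 ± 0.38, adjusted p = 0.00144) and Jag2 rose 4.32-fold (log2 2.11 ± 0.21, adjusted p = 0.000423), each from a small intestine level at which 1 of 3 arrays was not well above background. Within the 2 slides the differences were 4.49 and 3.51 for Hey1, 3.25 and 1.76 for Notch3 and 2.02 and 2.29 for Jag2. The call of Jag2 was lost with another background correction and with the authors' normalized values, because its log2 difference there was 0.98 and 1.11.

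The remaining members missed the threshold in this comparison, several of them narrowly. Hes1 was 1.499 ± 0.35 higher in adenoma (adjusted p = 0.0109) and Atoh1 1.23 ± 0.28 lower (adjusted p = 0.0103). Notch1 was 1.24 ± 0.33 lower (adjusted p = 0.0187) and Dll1 0.90 ± 0.26 lower (adjusted p = 0.0251). Notch2 differed by 1.08 ± 0.30 (adjusted p = 0.0210) and Jag1 by 0.70 ± 0.19 (adjusted p = 0.0205), both toward higher levels in adenoma. Dll4 differed least, by -0.47 ± 0.20 (adjusted p = 0.0888). At an adjusted p of at most 0.05 with no minimum fold, 9 of 10 members passed, 6 higher and 3 lower, where 53.4% of all genes did, 23% higher and 30.4% lower. Notch3 and Jag2, among the 6, were tested through adenoma alone. For all 10 members the adenoma arrays did not overlap the small intestine arrays, which held for 65.7% of the genes tested. Small intestine replicate 1 weighed on this comparison: without it 5 members were called, Hes1 (log2 1.88, adjusted p = 0.00115) and Notch2 (1.35, adjusted p = 0.00472) in addition.

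**Figure D2:**
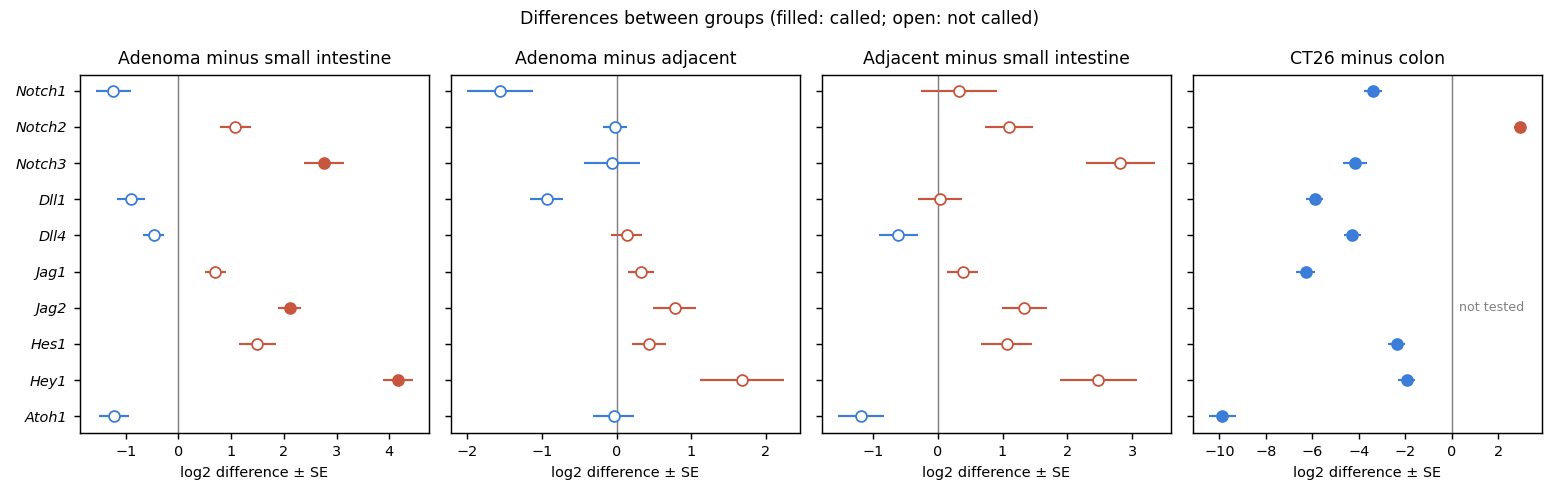
The x axis gives the log2 difference between groups with its SE as a bar, on a scale of its own in each panel, and the y axis gives the gene; red marks higher and blue lower in the group named first. Filled points were called: Hey1, Notch3 and Jag2 in adenoma minus small intestine, none in the 2 panels with adjacent tissue, and 9 in CT26 minus colon, where Jag2 was not tested.

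Markers of other cell types moved in the same samples. Of 8 endothelial markers, 5 rose in adenoma relative to small intestine, among them Cdh5 by 3.93 and Eng by 2.47 on the log2 scale, and the median of the list went from between -2.55 and -2.33 to between -0.48 and -0.06. The log2 of their summed signal was 3.48 to 4.01 in small intestine and 3.73 to 4.09 in adenoma, and all 8 were above background in both groups. Adjacent tissue, with a median of -0.83 to -0.58, lay close to adenoma, as Notch3 did. Smooth muscle and pericyte markers, 9 in all, had a lower median in adenoma (1.47 to 1.67) than in small intestine (2.42 to 4.04), with a summed level of 6.42 to 6.66 against 6.84 to 8.67 and 1 marker called lower. Small intestine enterocyte markers, 10 in all and each above background in both groups, fell for 7 and rose for none, with a median log2 difference of -3.08. Their list median was 5.99 to 9.20 in small intestine and 4.75 to 5.65 in adenoma, and their summed level 11.1 to 12.3 and 8.60 to 9.33. For the secretory lineage, 5 of 8 goblet, 4 of 7 Paneth and 6 of 8 enteroendocrine markers fell in adenoma while 1 Paneth marker rose. Summed levels were 11.4 to 11.6 in small intestine and 9.89 to 10.3 in adenoma for goblet markers, 11.1 to 11.6 and 8.86 to 9.75 for Paneth markers, and 7.80 to 7.95 and 5.47 to 5.66 for enteroendocrine markers. Of 6 stem cell markers 4 rose, with a summed level of 3.58 to 4.94 in small intestine and 6.15 to 6.18 in adenoma, and of 10 proliferation markers 8 rose, from between 5.61 and 6.51 to between 7.35 and 7.49. The part of these markers in the differences of Hey1, Notch3, Jag2 and Atoh1 was not tested.

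Adenoma and adjacent tissue, by the sample list, come from the same animal, so Apc genotype and animal are shared in this comparison. In adenoma against adjacent tissue, 0 of 10 members were called by limma, where 4.29% of 21043 genes were, and 4 members had an unadjusted p below 0.05, as did 38.5% of all genes. Dll1 was the member with the smallest adjusted p, 0.94 ± 0.22 lower in adenoma (adjusted p = 0.0385), and the only one to pass the wider threshold that 20.5% of genes passed. Notch1 was 1.56 ± 0.45 lower (adjusted p = 0.0604) and Hey1 1.68 ± 0.56 higher (adjusted p = 0.0857). Both rested on an adjacent group whose 2 pieces disagreed: Hey1 differed by 2.71 within slide 1 and by 0.58 within slide 2, and Notch1 by -0.79 and -2.31. Without adjacent replicate 1 Notch1 was called (log2 -2.35, adjusted p = 0.00860), and without adjacent replicate 2 Hey1 was (log2 2.64, adjusted p = 0.00694). Notch3, which rose against small intestine, differed from adjacent tissue by -0.06 ± 0.37, a difference of no fixed sign when single arrays were left out. Jag2 was 0.77 ± 0.29 higher (adjusted p = 0.111). Atoh1 differed by -0.04 ± 0.28 and Hes1 by 0.44 ± 0.23.

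In adjacent tissue against small intestine, 0 of 10 members were called by limma, nor were they with any alternative, while 6 had an unadjusted p below 0.05, as did 31.1% of all genes. Only 0.00975% of the 20518 genes tested were called at all. Adjacent tissue stood 2.82 ± 0.53 above small intestine for Notch3 (adjusted p = 0.0563), 2.48 ± 0.60 above it for Hey1 (adjusted p = 0.0734) and 1.34 ± 0.35 above it for Jag2 (adjusted p = 0.0802). Atoh1 was 1.19 ± 0.36 lower (adjusted p = 0.0999). The adenomas had differed from the same small intestine arrays by 2.76 for Notch3, 4.16 for Hey1, 2.11 for Jag2 and -1.23 for Atoh1.

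Colon against small intestine compared the normal tissues of the 2 ends of the intestine, and 0 of 9 members tested were called by limma, beside 0.0102% of 19569 genes; 3 members had an unadjusted p below 0.05, as did 24.3% of all genes. Hes1 was 1.30 ± 0.39 higher in colon (adjusted p = 0.128) and Dll1 1.24 ± 0.38 lower (adjusted p = 0.134). Atoh1 differed by 0.90 ± 0.64 (adjusted p = 0.422). Without colon replicate 3, Atoh1 was 1.63 ± 0.33 higher (adjusted p = 0.0191), Hes1 higher (log2 1.5 ± 0.40, adjusted p = 0.0428) and Dll1 1.45 ± 0.39 lower (adjusted p = 0.0425), and none of the 10 members was called, where 7.49% of all genes were. Jag2 was well above background on 2 of 3 arrays in each group and was not tested.

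In CT26 cells Dll1, Dll4 and Jag1, 3 of the 4 ligands, and Atoh1 and Notch3 were not detected, Notch1, Hes1 and Hey1 were lower than in colon, and Notch2 was higher. Against colon, 9 of the 9 members tested were called, 1 higher and 8 lower, where 37.5% of 20526 genes were called, 20.9% higher and 16.6% lower. The 5 members not well above background in CT26 could be tested through colon alone, where they are expressed. So could Hey1, which was above background on 2 of 3 CT26 arrays. The count of 9 is thus no support for a common direction. Notch2 rose 7.58-fold (log2 2.92 ± 0.26, adjusted p = 8.17e-05), from 0.09 ± 0.07 to 3.01 ± 0.10 (SD, n = 3 each), and was also 6.53-fold above adenoma. A second Notch2 probe was above background in CT26 and on no colon array, and was at least 3.13-fold higher in CT26 (means -2.90 and -5.33). Notch1 fell 10.5-fold (log2 -3.40 ± 0.37, adjusted p = 0.000234), so the 2 crypt receptors moved in opposite directions. Hes1 fell 5.14-fold (log2 -2.36 ± 0.36, adjusted p = 0.00129) and was still above background on all 3 CT26 arrays.

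For the genes at background in CT26 only a bound can be given, set against the lowest signal that was well above background on each array. Atoh1 was at least 254-fold lower in CT26 than in colon (means -7.16 and 2.71, adjusted p = 1.22e-05), with its colon level spread between 1.26 and 3.55. Jag1 was at least 21.6-fold lower (means -7.14 and -0.85, adjusted p = 1.64e-05), Dll1 at least 18.8-fold (means -6.94 and -1.04, adjusted p = 1.39e-05), Dll4 at least 10.2-fold (means -6.21 and -1.93, adjusted p = 6.58e-05) and Notch3 at least 6.22-fold (means -6.81 and -2.64, adjusted p = 0.000495). The call of Notch3 was lost in the authors' values (log2 -1.11, adjusted p = 0.0102). Hey1 was 3.84-fold lower (log2 -1.94 ± 0.38, adjusted p = 0.00389), with 2 of 3 CT26 arrays above background. The direction was the same in each fit, but the call was missed with the slide as a block (log2 -1.86, adjusted p = 0.0130), with quantile normalization (-1.44, adjusted p = 0.0197), with every probe tested (adjusted p = 0.0101), in the authors' values (-0.74) and when colon replicate 1 or 2 or CT26 replicate 1 or 3 was left out (-2.07 to -1.64). Without colon replicate 3 these 9 members were called, beside 40% of all genes, and Jag2, then tested, was not (log2 -1.02 ± 0.46, adjusted p = 0.100). The bound of Atoh1 was then at least 420.5-fold, and those of the other 4 members at background ran from 6.18-fold for Notch3 to 28.5-fold for Jag1.

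Against adenoma, CT26 differed in all 10 members tested, 1 higher and 9 lower, where 42.6% of genes were called, 22.1% higher and 20.5% lower. Notch3, Dll1, Dll4, Jag1, Jag2, Hey1 and Atoh1 could be tested through adenoma alone, so the count gives no support for a direction. Hey1, the member that had risen most in adenoma, was 48.7-fold lower in CT26 (log2 -5.61 ± 0.34, adjusted p = 4.00e-06). Jag2 was 6.56-fold lower and lost its call in the authors' values (log2 -1.16). Hey1 and Jag2 were each well above background on 2 of 3 CT26 arrays. Notch1 was 4.31-fold lower. Atoh1 was at least 58.0-fold, Jag1 at least 33.4-fold, Dll1 at least 23.7-fold, Notch3 at least 19.6-fold and Dll4 at least 8.51-fold lower. Beside these, 5 of 8 endothelial, 7 of 8 goblet and 5 of 6 stem cell markers were well above background on no CT26 array, while the proliferation markers had a summed level of 8.32 to 8.73, above that of every tissue (5.61 to 7.49). Strain, culture and the lack of other cell types cannot be told apart from tumor origin in either comparison with CT26.

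Promoter sequence is shown for Notch2 and Atoh1, the members at the 2 ends of the CT26 comparison, because the study's wider question is DNA methylation, which acts on CpG dinucleotides. Methylation was not analysed here. The letters are the 250 bases before the RefSeq start on the plus strand of GRCm38.p6, chr3:98013288-98013537 for Notch2 and chr6:64728875-64729124 for Atoh1, with every CpG in capitals.
Notch2: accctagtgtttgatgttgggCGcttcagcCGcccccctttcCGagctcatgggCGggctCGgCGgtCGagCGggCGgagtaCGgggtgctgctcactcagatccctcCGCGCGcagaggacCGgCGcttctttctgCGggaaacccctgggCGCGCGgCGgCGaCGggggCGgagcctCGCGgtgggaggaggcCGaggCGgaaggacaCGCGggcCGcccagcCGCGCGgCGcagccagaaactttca
Atoh1: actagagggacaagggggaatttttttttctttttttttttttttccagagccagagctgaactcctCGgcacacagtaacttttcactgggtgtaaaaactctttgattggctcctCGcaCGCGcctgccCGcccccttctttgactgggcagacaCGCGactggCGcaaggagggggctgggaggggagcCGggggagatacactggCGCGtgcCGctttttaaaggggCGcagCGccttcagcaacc
The Notch2 stretch holds 34 CpG and the Atoh1 stretch 14. Windows of 300 bases, reaching 50 bases past the start, were found for 8 of the 10 members, Hes1 and Hey1 being without an entry, and Dll1 had 2. All 9 windows were richer in CpG than the median of 7 over 27025 genes, from 15 in one Dll1 window to 63 in Jag2, and 3.3% of all windows held as many as the 41 of Notch2. The Rbpj core TGGGAA, searched on both strands, was in none of the 9 and in 25.5% of all windows. The letters CACNAG, a site class of Hes repressors, also on both strands, were in 6 of the 9 and in 42.6% of all windows.

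The difference between the 2 tumor comparisons was tested in 1 fit of the 12 arrays of small intestine, adenoma, colon and CT26. It was called for all 10 members, where 31.5% of 22208 genes were, 15.8% toward adenoma and 15.7% toward CT26. The effect was more positive in adenoma for 9 members and in CT26 for Notch2. Notch3, Dll1, Dll4, Jag1 and Atoh1 were at background in CT26 and could be tested through the tissues alone. So could Hey1, above background on 2 of 3 CT26 arrays, and Jag2 through adenoma alone. The count thus gives no support for a direction. Hey1 was up by 4.16 in adenoma and down by 1.94 in CT26, a difference of 6.10 ± 0.49 (adjusted p = 2.71e-06). Hes1, which differed by 1.499 in adenoma and -2.36 in CT26, had a difference of 3.86 ± 0.53 (adjusted p = 0.000154). For Notch3, at 2.76 and -4.17, the difference was 6.93 ± 0.72 (adjusted p = 1.88e-05), with the CT26 values at background. Notch1 moved the same way in both, by -1.24 and -3.40, with a difference of 2.16 ± 0.52 (adjusted p = 0.00591). That difference stayed between 1.84 and 2.20 in the 9 of 12 leave-one-out fits in which it missed the threshold (adjusted p = 0.0123 to 0.0175), all but those without small intestine replicate 3, colon replicate 3 or CT26 replicate 1. It was also missed in the authors' table (1.39), with every probe tested, in 1 fit of all 5 groups and under a replicate block. When colon replicate 3 was left out all 10 members were called, where 36.5% of all genes were, with differences of 2.30 for Notch1, -1.885 for Notch2, 6.92 for Notch3, 4.06 for Hes1, 6.12 for Hey1 and 9.37 for Atoh1. The median of all probes differed by -0.45 in this contrast, and a quantile normalization left Notch2 at -1.46 (adjusted p = 0.0109).

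Beyond the members, 64 other genes of the pathway and of secretory differentiation were listed by role. In adenoma against small intestine 19 of 61 tested were called, 8 higher and 11 lower, or 31.1% beside 22.9% of all genes, and the list median was -0.08 beside -0.15. Notch4, the endothelial receptor, rose by 2.26 on the log2 scale and Dlk1, a non-canonical ligand, fell by 2.42. Among 10 genes of ligand handling and glycosylation, Neurl1b (1.80) and Lfng (1.67), a glycosyltransferase that tunes the response to Delta and Jagged, rose, while Rfng (-1.39) and Mib2 (-1.31), a ligand ubiquitin ligase, fell. In the nuclear complex 1 of 14 was called, Kat2b, a coactivator, which fell by 1.203. Of 10 modulators 1 rose and 4 fell: Dtx1 by 2.34, Dtx3l by 2.12, Numb, an inhibitor of Notch, by 1.60 and Itch, a ubiquitin ligase, by 1.26. Hes2 fell 14.7-fold, the single call among 5 tested Hes and Hey relatives.

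Of 9 secretory factors tested in this comparison 4 rose and 1 fell, where 11.6% of all genes were called higher and 11.3% lower. Sox9, a factor of crypt progenitors and Paneth cells, rose 8.85-fold, Foxa1 rose 3.61-fold and Spdef, the goblet and Paneth factor downstream of Atoh1, rose 2.37-fold. Neurod1, an enteroendocrine factor, fell at least 3.09-fold to below background. Against adjacent tissue 5 of 59 listed genes tested were called, 8.5% beside 4.29% of all genes, and the median was 0.02 beside -0.05. They were Sox9 (log2 2.17), Foxa1 (1.77) and Spdef (1.67), which were higher, and Hes2 (-2.60) and Dtx1 (-1.87), which were lower. In adjacent tissue against small intestine and in colon against small intestine none of the listed genes was called. Without colon replicate 3, a setting chosen after seeing the data, 4 of 60 were called in colon against small intestine: Foxa2 (log2 3.34) and Creb3l1 (3.08) higher and Hes2 (-3.54) and Rfng (-1.42) lower.

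In CT26 against colon 23 of 58 listed genes tested were called, 10 higher and 13 lower, 39.7% beside 37.5% of all genes, with a median of -0.41 beside 0.37. The nuclear complex had 4 of 14 genes higher and none lower. Rbpj, the DNA-binding partner of every Notch receptor, rose 14.3-fold (log2 3.84 ± 0.31, adjusted p = 5.35e-05), with CT26 arrays at 4.23, 4.26 and 4.57 and colon arrays at 0.70, 0.78 and 0.07. A second Rbpj probe, at lower signal but above background on all 14 arrays, read 2.83, 1.80 and 2.42 in CT26 and -1.85, -2.18 and -1.92 in colon (log2 4.34 ± 0.34, adjusted p = 4.53e-05). The mouse genome holds Rbpj pseudogenes, and neither probe was checked against them. Maml2, a coactivator, rose by 2.53 and Snw1 by 1.37. Maml2 was above background on 1 of 3 colon arrays and could be tested through CT26 alone. Adam17, a protease that can cleave the receptors, rose by 1.61. Mfng, a glycosyltransferase, fell by 3.33 and Neurl1a by 1.64, and Neurl1b (1.70) and Poglut1 (1.56) were higher. The modulators split within 1 family, with Dtx4 (-6.04) and Dtx1 (at least 35.03-fold) lower and Dtx3 (2.66) higher, beside Numbl (2.42). Hes2 fell by 4.42 and Hes6, a Hes relative that opposes Hes1, by 3.95. Of 8 secretory factors tested 6 fell and none rose, where 16.6% of all genes were called lower. Factors at background in CT26, such as Foxa2 and Gfi1, could be tested through colon alone, so the count gives no support for a direction. Foxa2 was at least 237-fold lower, Spdef 603-fold, Creb3l1 147-fold and Gfi1, which acts downstream of Atoh1, at least 82.4-fold, beside 7 of 8 goblet markers that were above background on no CT26 array. In the fit that left colon replicate 3 out, again chosen after seeing the data, 28 of 61 listed genes were called, beside 40% of all genes. Of these 10 were higher and 18 lower, and 22 were among the 23. Snw1 was no longer called (log2 1.29, adjusted p = 0.0140) and Dlk2 was called higher. Hes5, Heyl, Neurod1, Sox9 and Foxa1 were called lower, so that all 9 secretory factors tested were lower, a count with the same limit. Foxa2 was then at least 454-fold, Creb3l1 264-fold and Hes2 11.7-fold lower, the last in place of 21.5-fold.

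**Figure D3:**
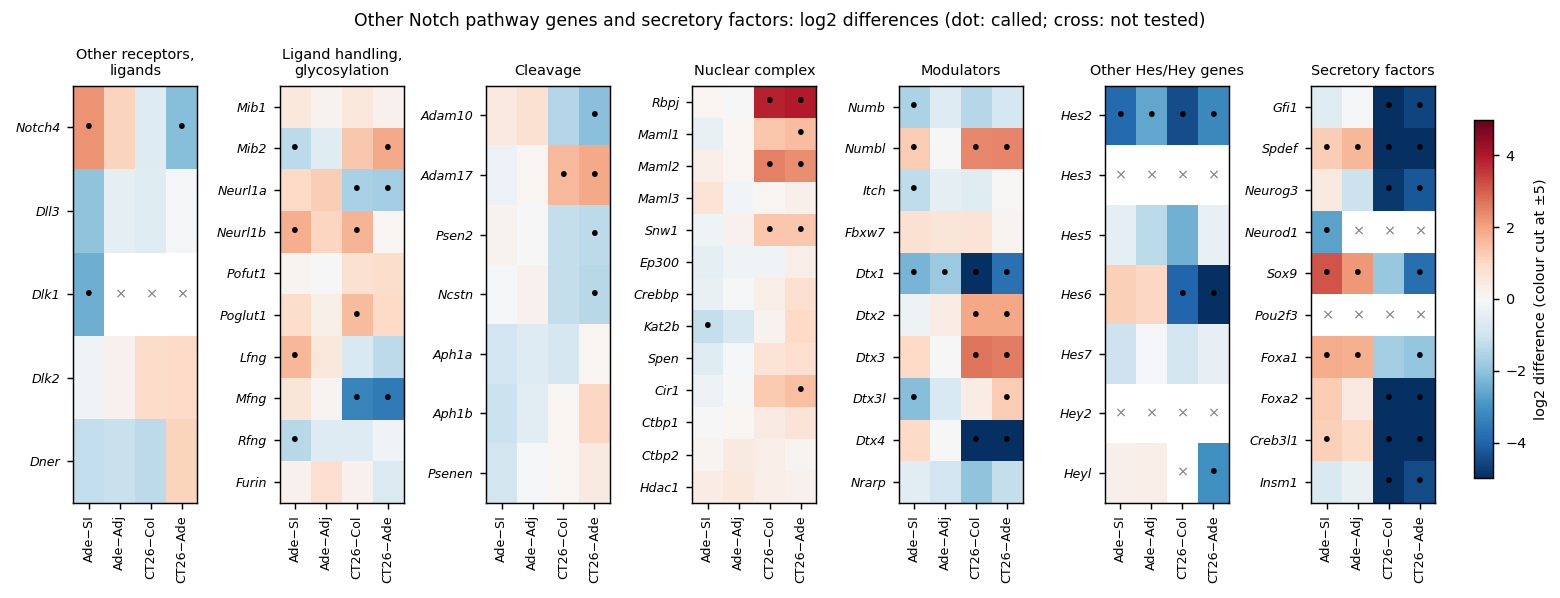
Colors give the log2 difference (scale at the right, cut at 5 in size) of each listed gene in 4 comparisons on the x axis, with Ade for adenoma, SI for small intestine, Adj for adjacent tissue and Col for colon; genes are rows and panels are roles. Dots mark called genes and crosses genes not tested; 62 of the 64 listed genes are drawn. Rbpj is the deepest red of the nuclear complex in both CT26 columns. Among secretory factors 4 were called higher and 1 lower in adenoma minus small intestine, and 6 of 8 tested lower in CT26 minus colon. Those at background in CT26 could be tested in the CT26 columns through the tissue alone.

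In CT26 against adenoma 31 of 59 listed genes were called, 12 higher and 19 lower, 52.5% beside 42.6% of all genes, with a median of 0.10 beside 0.37. Rbpj was again higher, by 3.97, as were Maml2 and Maml1. All 8 secretory factors tested were lower, where 20.5% of all genes were. Those at background in CT26 could be tested through adenoma alone, so this count gives no support for a direction. Of the 8 genes of receptor cleavage 1 was higher, Adam17 by 1.885, and 3 were lower, among them Adam10, also a protease of the receptors, by 2.08. Hes3, Hey2 and Pou2f3 were tested in no comparison, since no group had them above background on every array.

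Genes with the pattern most like that of a member were sought over the 14 arrays among 22426 genes, as a description, since all arrays share the split between tissue and CT26. For Atoh1 they were Hepacam2 (Pearson r = 0.996), Sytl2 (0.995), which is itself on the goblet list, and Fam174b (0.994). For Dll1 they were Bche (0.995) and Kiss1 (0.995), and for Notch1 the transcript ENSMUST00000141713 (0.997), Ermn (0.997) and Gab3 (0.996). Hes1 had weaker counterparts, with C230037E05Rik at 0.963, Epha4 at 0.960 and Mpped2 at 0.960.

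**Figure D4:**
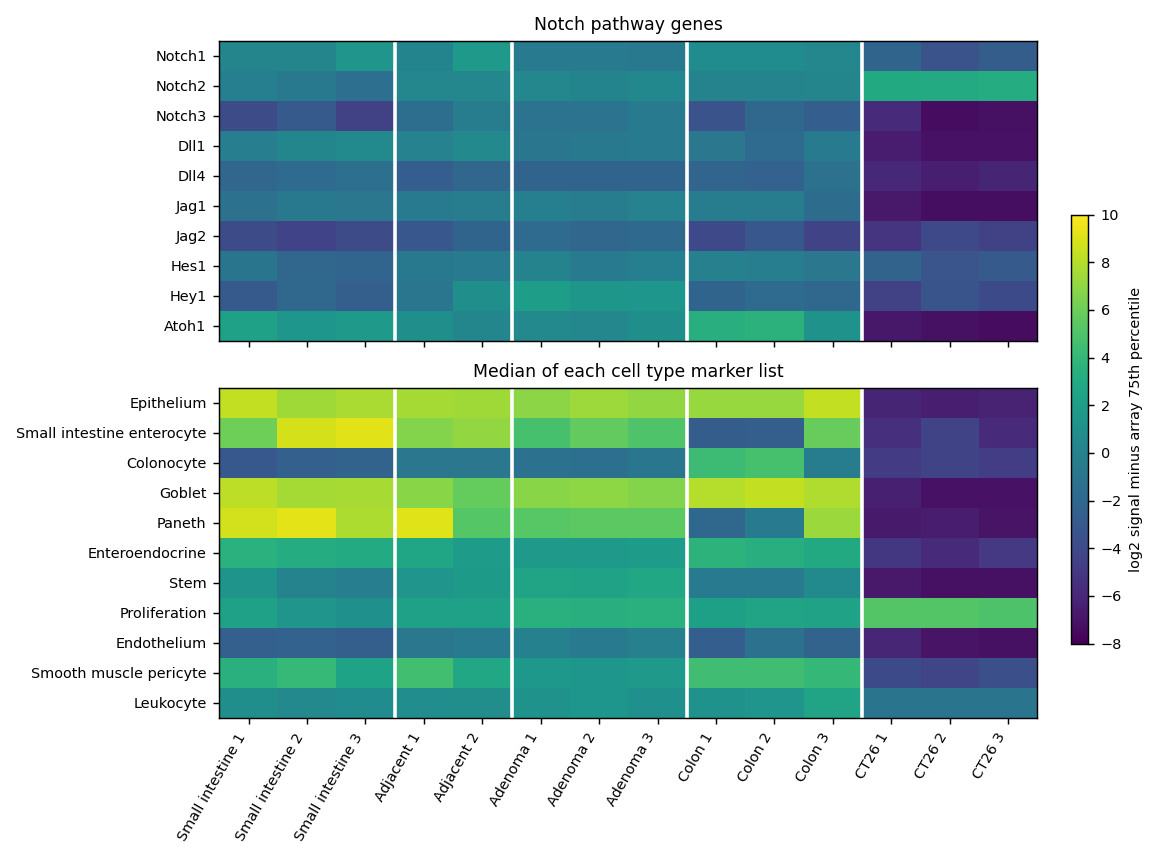
Columns are the 14 arrays in 5 groups separated by white lines, and color gives log2 signal minus the array's 75th percentile; the upper rows are the 10 genes and the lower rows the medians of 11 cell type marker lists. Colon replicate 3 carries enterocyte (5.79) and Paneth (7.30) marker levels close to those of small intestine, and the CT26 columns are dark for every list but proliferation and leukocyte.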

How the data were processed

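The deposited files are the scanner output of 14 one-color Agilent mouse arrays (60-base probes placed by the files on NCBI37/mm9, Feature Extraction 10.7.3.1) with intensity values, and a table in which the authors gave normalized log2 values; its columns of the authors' own comparisons hold fold changes and p-values and were not used, nor were 28 other columns of per-sample values. From the processed intensity, log2 values minus each array's 75th percentile were computed, control and outlier spots (103 to 206 an array) left out and spots of a probe averaged. Where a gene had several probes, the one brightest on average stood for it. Probes entered a test if they cleared background throughout 1 or more of its groups. Each pair of groups was fitted alone in limma (version 3.58.1, R 4.3.3, moderated two-sided test), with Benjamini-Hochberg adjustment over all probes tested. Simulated data were used to test the fit.

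The 10 members were all named, with up to 4 called genes per list and comparison and the 3 genes most like 4 of the members. The rule for the members uses no measured value, but members and lists were picked with earlier results of these data known. Groups came from the labels. The paper describes its sequencing replicates of tissues and cell lines as biological. Nothing read here says that the CT26 replicates on the arrays are separate cultures, and by the sample list adenoma and adjacent pieces share a mouse. The p-values therefore measure the spread between these samples, part of which may be technical. Alternatives were a normexp background correction (offset 50), quantile normalization, the authors' table, no filter on dim probes, 1 fit of all 5 groups, the slide and the replicate number as blocks, an adjusted p of 0.05, any probe of a gene, and each array left out in turn. The number of arrays, 2 or 3 a group, limits the precision. The position of probes within exons or untranslated regions was not determined here, and no genome of the files' build was used. A few genes that the naming rule would give are not reported here.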

Additional observations from a re-analysis of the deposited data

Results flagged for a closer look

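The effect in adenoma (adenoma minus small intestine) and that in CT26 (CT26 minus colon) differed by the test of the difference itself, in 1 limma fit of 12 arrays, for each of the 10 genes. On the log2 scale, with adenoma more positive where the value is above 0, the differences were 2.16 for Notch1, -1.845 for Notch2, 6.93 for Notch3, 4.995 for Dll1, 3.81 for Dll4, 6.996 for Jag1, 2.89 for Jag2, 3.86 for Hes1, 6.10 for Hey1 and 8.64 for Atoh1. The adjusted p was highest for Notch1 (0.00591) and lowest for Jag1 (5.54e-07). For Notch3, Dll1, Dll4, Jag1 and Atoh1 the CT26 values were at background, so the size of these differences depends on the background level. These genes, and Jag2 and Hey1, entered the test through tissue alone, so the count of 10 gives no support for a direction. Without colon replicate 3 all 10 differences passed the threshold as well, from -1.885 for Notch2 to 9.37 for Atoh1. In the authors' values the threshold was missed by Notch1 (1.39), Dll4 (1.08) and Jag2 (1.17). Notch1 also missed it in most fits with 1 array left out and with every probe tested. The same held in 1 fit of all 5 groups and under a replicate block. Notch2 missed it with quantile normalization (-1.46). The test of the gap between 1 array and the rest needs groups of 4 or more, so it was not applied to these groups of 2 or 3.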

How the results depend on the processing

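No call turned its direction: 0 of the 32 called differences of a member changed sign under any alternative that tested it. Of 992 refits of a member's difference, 928 kept direction and side of the threshold, 28 lost a call, 14 gained one and 22 turned the sign, all of them differences that were not called. In adenoma against small intestine Jag2 lost its call with normexp (log2 0.98), and no other member gained one there. In the authors' table Hes1 (1.24) was called in place of Jag2 (1.11). The count of 3 in this comparison went to 9 at an adjusted p of 0.05 with no minimum fold and to 4 in 1 fit of all 5 groups. It went to between 3 and 5 with single arrays left out. In adenoma against adjacent tissue the 0 went to 1 at that threshold and to between 0 and 1 with single arrays left out. The count in CT26 against colon lay between 8 and 9 with single arrays left out and at 7 in the authors' table. For CT26 against adenoma it was 10 in every fit with an array left out, and for the difference of the 2 tumor effects between 9 and 10. In the authors' table CT26 against adenoma lost the call of Jag2 (log2 -1.16). The difference of the 2 tumor effects lost those of Notch1 (1.39), Dll4 (1.08) and Jag2 (1.17) there. Without colon replicate 3, chosen after seeing the data, the listed pathway genes called went from 0 to 4 in colon against small intestine and from 23 to 28 in CT26 against colon. Counts of members stayed at 0 in adjacent tissue and in colon against small intestine with every array left out.

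Reversed signs were those of Dll4 in adenoma against adjacent tissue with normexp (-0.0552), Dll1 in adjacent tissue against small intestine with the slide as a block (-0.0059) and Jag1 in colon against small intestine in the authors' table (-0.013). With single arrays left out, adenoma against adjacent tissue ranged from -0.0727 to 0.0541 for Notch2, from -0.62 to 0.50 for Notch3, from -0.14 to 0.41 for Dll4 and from -0.37 to 0.29 for Atoh1. Adjacent tissue against small intestine ranged from -0.47 to 1.11 for Notch1 and from -0.20 to 0.27 for Dll1, and colon against small intestine from -0.15 to 0.45 for Notch1, from -0.52 to 0.0039 for Dll4 and from -0.14 to 0.48 for Jag1. The cause was not tested. Matched by replicate label, the samples showed weak correlations of their deviations, from -0.12 to 0.29. The titles number the adjacent samples otherwise than the replicate labels do. Pairs of adenoma and adjacent tissue by title were not examined. With the replicate number as a block, 4 members were called in adenoma against small intestine, 9 in CT26 against colon, 10 in CT26 against adenoma and 9 for the difference of the 2 tumor effects, and 0 in the other 3. Signal near background limits Jag2 and Notch3 outside adenoma and adjacent tissue.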
